A study of Mus musculus with 19 samples.

Results

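The genes described here encode proteins of the presynaptic terminal, the compartment of a neuron that stores transmitter in vesicles and releases it. The 46 genes were chosen by symbol and were found by their Ensembl identifiers among the 48709 genes of the count files; each symbol matched 1 identifier. They comprise 12 genes of the vesicle itself, 9 of the fusion machinery, 6 synaptotagmins and relatives (the group of calcium sensors, although one of them, Syt11, does not bind calcium), 12 of the active zone, 5 of vesicle endocytosis and 2 neurexins. RNA from the CA1 region of the hippocampus of 7-month-old mice was sequenced in 3 groups. WT control (n = 6) were littermates without the transgenes. The remaining animals were APPPS1-21 mice, of which 6 formed APP control and 7 formed APP anti-miR-mix (called anti-miR-mix below). They carry transgenes under Thy1 regulatory sequence, mutant human APP among them, and so express them mainly in neurons. WT control and APP control received a control oligonucleotide, while the anti-miR-mix animals received inhibitors of 3 microRNAs, miR-148a-3p, miR-181a-5p and miR-146a-5p; all were delivered to the dorsal hippocampus in lipid nanoparticles. In the labels the wild-type titles hold both the name of the mixture and the word control; these libraries were taken as controls, since the study gave wild-type animals the control oligonucleotide.

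Transmitter release is a cycle. Transporters fill vesicles, tethering proteins of the active zone hold them at the membrane, and SNARE proteins pull vesicle and membrane together while complexins clamp and assist them. Synaptotagmins bind the calcium that enters with an action potential and trigger fusion, after which dynamin, amphiphysin, synaptojanin and endophilin retrieve the membrane. In a hippocampal dissection these transcripts come mostly from the cell bodies of local neurons, while many terminals there belong to neurons whose cell bodies lie elsewhere.

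The total count per library lay between 19362343 and 37018917, and the 46 genes took between 1.96% and 2.32% of the counts in any library. Every one of the 46 passed the filter on low counts. Levels are given as TPM, the count per kilobase of exon scaled to the same total in every library. The length covers every annotated exon of a gene, so levels of different genes also depend on how much exon is annotated. Markers of CA1 pyramidal cells summed to 817 to 1141 TPM in WT control, against 58.7 to 87.7 for CA3 markers and 27.8 to 71.5 for dentate gyrus markers. WT control 1 and WT control 5 stood apart in genes of the glial response to amyloid (summed level 3428 and 2831 TPM, where the remaining 4 lay between 1619 and 2221), and results that depend on them are given with and without them. WT control 4 lay at the edge of WT control in several lists. It was highest in CA1 markers (1141 TPM against 817 to 991), postsynaptic genes (3822 against 2950 to 3226), dentate gyrus markers (71.5 against 27.8 to 68.3) and general neuronal genes (8248 against 7358.5 to 8218.5). It was lowest in oligodendrocyte (3664 against 4519 to 6466), CA3 (58.7 against 62.0 to 87.7), astrocyte (1686 against 1720 to 2040), striatal (75.2 against 77.6 to 94.9), thalamic (42.7 against 45.1 to 57.3) and cortical markers (154 against 171 to 225). Choroid plexus markers summed to 186 TPM in WT control 5 and 142 TPM in anti-miR-mix 6, against 11.9 to 29.9 TPM in every other library. In APP control, libraries 5 and 6 were low in the amyloid response genes (3327 and 3672 TPM against 6135 to 8574), library 5 being below WT control 1. APP control 5 also stood apart in homeostatic microglial (198 TPM against 315 to 443), oligodendrocyte (3226 against 4310 to 5956) and endothelial markers (246 against 136 to 151).

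The oligonucleotides and the microRNAs they pair with are shown because 14 of the 46 genes are predicted targets of these microRNAs in the study's lists. The mature sequences (RefSeq, GRCm38.p6) have their seed, bases 2 to 8, in capitals. The mature miR-146a-5p lies in Mir146 at chr11:43374435-43374456 (minus strand) and miR-148a-3p in Mir148a at chr6:51269829-51269850 (minus strand). The mature miR-181a-5p is encoded by Mir181a-1 at chr1:137966468-137966490 and Mir181a-2 at chr2:38852741-38852763 (both plus strand).
miR-146a-5p: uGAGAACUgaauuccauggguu
miR-148a-3p: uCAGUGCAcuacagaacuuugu
miR-181a-5p: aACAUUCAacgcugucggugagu
The inhibitors are written 5′ to 3′ with the bases that pair with the seed in capitals.
Inhibitor of miR-146a-5p: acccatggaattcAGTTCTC
Inhibitor of miR-148a-3p: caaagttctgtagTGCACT
Inhibitor of miR-181a-5p: actcaccgacagcgtTGAATG
Negative control: taacacgtctatacgccca
The inhibitor of miR-146a-5p covers all 7 seed bases, and the other 2 inhibitors cover 6 seed bases each. The 3 seeds differ from each other.

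The match to each seed was sought in the longest annotated 3′ UTR of each gene (GENCODE M21, GRCm38), on the strand of the mRNA, as AGTTCTC for miR-146a-5p, TGCACTG for miR-148a-3p and TGAATGT for miR-181a-5p. These 7 letters were present in 12.4%, 14.9% and 18.1% of the 15397 tested genes with a 3′ UTR, and in 12, 9 and 11 of the 46. The 3′ UTRs of the 46 were longer, with a median of 2372 bases against 1161. Of the predicted targets, 5 of 7 held the match of miR-146a-5p, 3 of 4 that of miR-148a-3p and 2 of 4 that of miR-181a-5p. One site is shown for each microRNA, that of the predicted target holding the match with the smallest p between anti-miR-mix and APP control, and both sites of Syt1, the only gene predicted for 2 of the microRNAs. Each is a stretch of 23 bases on the mRNA strand with the match in capitals.
Syt7, miR-146a-5p, chr19:10452254-10452276, plus strand: gcagctggcctgccAGTTCTCag
Synj1, miR-148a-3p, chr16:90937167-90937189, minus strand: tggattttgtctccTGCACTGcc
Synpr, miR-181a-5p, chr14:13614070-13614092, plus strand: aatgtagagaatgtTGAATGTaa
Syt1, miR-148a-3p, chr10:108498971-108498993, minus strand: ccattccctcgtacTGCACTGcc
Syt1, miR-146a-5p, chr10:108498941-108498963, minus strand: tgtgtagcacaaacAGTTCTCat
A match is a description of the letters in this window, and whether any site is bound was not measured.

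The genes spanned a wide range of levels in WT control. Snap25, a SNARE of the plasma membrane, was highest at 1284 ± 112 TPM (SD, n = 6). Cplx1 and Vamp2, a complexin and the main vesicle SNARE, followed at 1178 ± 158 and 1059 ± 50.1 TPM. Dnm1, the neuronal dynamin that cuts vesicles from the membrane, was at 1030 ± 92.4 TPM. Syn3, a synapsin, was lowest at 4.56 ± 0.820 TPM. It shares 14.1% of its exonic bases with Timp3 on the opposite strand, whose mean count was 1903 against 363 for Syn3, and Syp shares 16.8% with Gm14703, whose mean count was 71.8, so counts of either may include reads of the partner. By their mean over all libraries, 25 of the 46 ranked among the 1000 highest of 19237 tested genes with an annotated length.

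**Figure D1:**
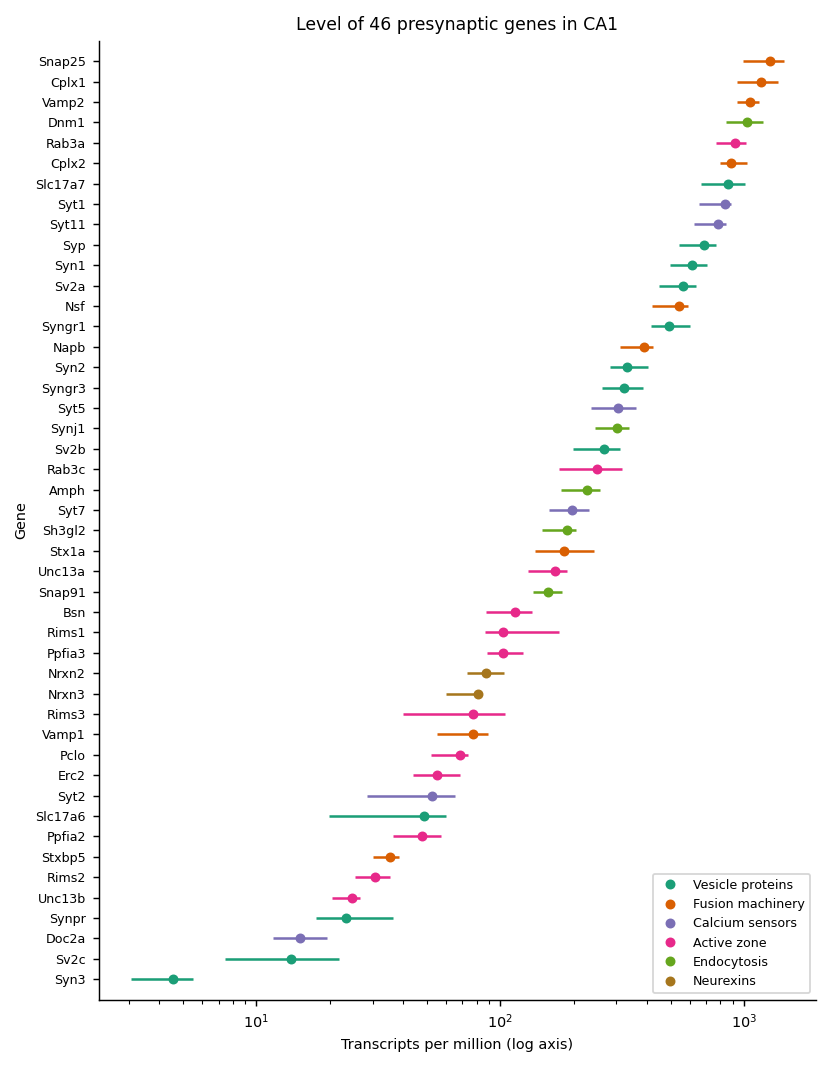
Level of each of the 46 genes in TPM, on a log axis, in order of the WT control mean. Points are WT control means, lines run from the lowest to the highest of all 19 libraries, and colour gives the role; Snap25 is highest at 1284 and Syn3 lowest at 4.56.

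Most neighbours in this order could not be separated. Of the 45 neighbouring pairs, 4 had WT control ranges that did not overlap: Syngr1 above Napb, Snap91 above Bsn, Ppfia2 above Stxbp5, and Sv2c above Syn3. In the vesicle group the glutamate transporter Slc17a7 (VGLUT1, of cortical and hippocampal pyramidal cells) stood at 861 ± 88.2 TPM and its relative Slc17a6 (VGLUT2, of subcortical neurons) at 48.6 ± 14.7 TPM. Syt1, the fast calcium sensor of forebrain terminals, stood at 834 ± 40.6 TPM, and Syt2, the fast sensor of many hindbrain and some inhibitory terminals, at 52.6 ± 13.7 TPM. Vamp2 was likewise far above Vamp1, which stood at 77.2 ± 12 TPM. Part of this gap is length, as the annotated exons cover 3809 bases in Vamp2 and 10167 in Vamp1. Their mean normalized counts in WT control were 28451 and 5519. Between Rims1 and Rims2, scaffolds that link vesicles to calcium channels at the active zone, Rims1 was higher, at 103 ± 9.70 against 30.5 ± 3.35 TPM.
The vesicle group also held the synapsins Syn1 and Syn2, which tie vesicles into the reserve pool, at 615 ± 54.5 and 332 ± 37.8 TPM. Synaptophysin, Syp, was at 686 ± 59.8 TPM and its relative Synpr at 23.4 ± 4.30 TPM. The SV2 proteins of the vesicle membrane went from 561 ± 55.9 TPM for Sv2a and 267 ± 30.9 TPM for Sv2b to 13.8 ± 4.25 TPM for Sv2c. Syngr1 and Syngr3, the synaptogyrins, stood at 493.2 ± 63.7 and 321 ± 40.2 TPM. In the fusion group Nsf, the ATPase that takes spent SNARE complexes apart, was at 541 ± 46.2 TPM, its adaptor Napb at 391 ± 32.3 TPM, Stx1a at 183 ± 32.3 TPM and Stxbp5, tomosyn, which competes for syntaxin, at 35.5 ± 3.00 TPM; Cplx2 was at 888 ± 78.2 TPM.

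Among the other synaptotagmins and relatives Syt11 was at 786 ± 51.5 TPM, Syt5 at 306 ± 35.4 TPM, Syt7, a slow sensor of high affinity, at 196 ± 22 TPM, and Doc2a at 15.1 ± 3.10 TPM. In the active zone the vesicle GTPases Rab3a and Rab3c were at 919 ± 75.8 and 249 ± 45.3 TPM. The priming factors Unc13a and Unc13b were at 168 ± 13.6 and 24.7 ± 1.53 TPM. The giant scaffolds Bsn and Pclo were at 116 ± 15.7 and 68.3 ± 5.57 TPM, Erc2 at 54.9 ± 8.66 TPM, the liprins Ppfia3 and Ppfia2 at 102 ± 9.85 and 47.7 ± 6.62 TPM, and Rims3, a short RIM, at 77.4 ± 24.6 TPM. For endocytosis Synj1 was at 302 ± 30.6 TPM, Amph at 227 ± 18.4 TPM, Sh3gl2 at 189 ± 15.4 TPM and Snap91 at 157 ± 13.7 TPM. The neurexins Nrxn2 and Nrxn3, adhesion proteins of the terminal, were at 87.9 ± 8.79 and 81.0 ± 2.82 TPM.

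The first comparison, APP control against WT control, asks what the transgenes changed. Rims1 rose and no other gene of the 46 passed the test; 41 of the 46 had a lower mean in APP control, each by a small amount. The median log2 fold change of the 46 was -0.114 (-7.60%), beside -0.0124 over all 19284 genes tested. Of all genes 54.4% were lower, against 89.1% of the 46. In DESeq2 with all 3 groups in 1 fit and Benjamini-Hochberg adjustment over all genes, 1 of the 46 was called higher and 0 lower at an adjusted p under 0.05, beside 3.89% of all genes higher and 1.11% lower. At an unadjusted p under 0.05, 10 of the 46 were lower and 1 higher, beside 5.54% and 8.17% of all genes. With the whole number per library recovered from the deposited log2 table as a linear term, 5 of the 46 were called: Rims1, and Nrxn3, Pclo, Syt1 and Syt11 lower. Calls over all genes also rose under that term, from 706 higher and 202 lower to 877 and 452 of 19297. In bulk tissue, fewer neurons and less RNA per neuron cannot be told apart.

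Rims1 (ENSMUSG00000041670, chromosome 1, 22286251 to 22805994, minus strand, GRCm38) encodes a RIM protein, which docks vesicles and holds calcium channels at the active zone. Its normalized count had a lowest, median and highest value of 4631, 5378 and 5915 in WT control, of 6460, 7029 and 7727 in APP control, and of 5998, 6984 and 9151 in anti-miR-mix. Every library with the transgenes was therefore above every WT control library. WT control averaged 5331 ± 511, APP control 7021 ± 440 and anti-miR-mix 7037 ± 1038 (SD). The log2 fold change in APP control was 0.40 (SE 0.0899, DESeq2 adjusted p = 5.63e-04), a 1.32-fold level, and edgeR gave an adjusted p of 0.00726. The call held in all 31 alternative settings, which include leaving out each library in turn, with log2 fold changes from 0.32 to 0.43 and adjusted p between 5.21e-09 and 0.0176.

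Rims1 was also the only one of the 46 whose groups did not overlap in APP control against WT control, where 1.20% of all genes were separated upward and 0.368% downward. Among 13 log2 ratios of related genes within a library, that of Rims1 to Rims2 separated APP control from WT control (1.99 to 2.26 against 1.62 to 1.88, TPM scale), and no other ratio did. It holds the same Rims1 values and is not separate evidence. The other ratio with Rims1, that of Rims3 to Rims1, overlapped (-1.151 to -0.395 in APP control, -1.458 to 0.011 in WT control). Rims2 itself had a log2 fold change of 0.03 (SE 0.0644, adjusted p = 0.934) and Rims3 of 0.02 (SE 0.176, adjusted p = 0.992). The 10 tested genes nearest to Rims1 on chromosome 1, 5 on each side, had log2 fold changes from -0.45 to 0.21, and 0 of them were called in APP control against WT control.

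**Figure D2:**
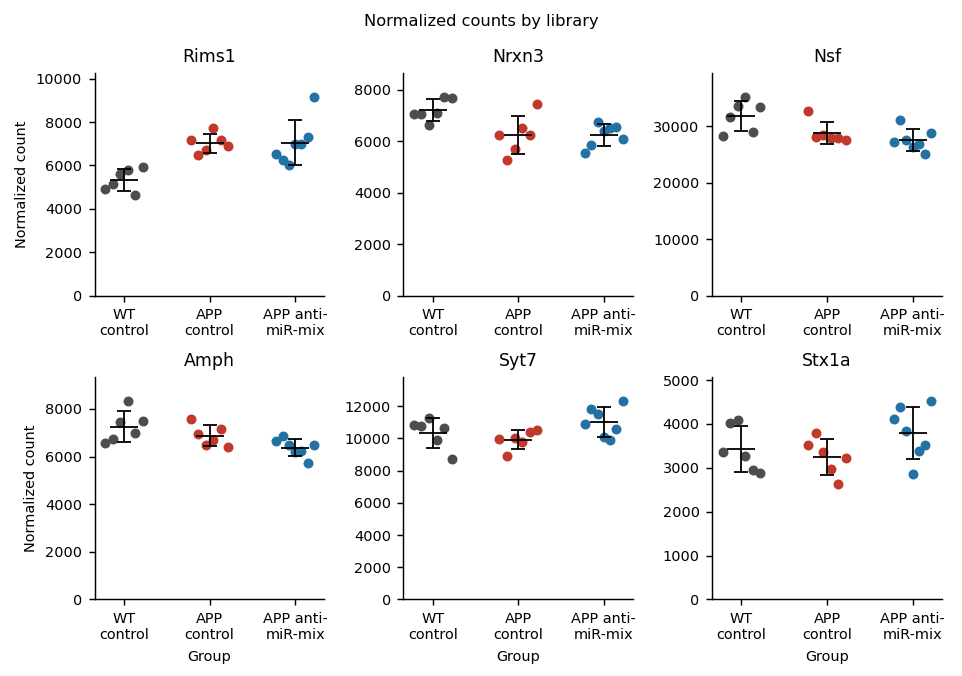
Normalized counts of 6 genes in each library, with the mean and SD of each group as black bars; the vertical axes start at 0. Every APP control and anti-miR-mix library lies above every WT control library for Rims1, while the groups overlap for Nrxn3, Nsf, Amph, Syt7 and Stx1a.

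The genes with the next smallest p-values were all lower in APP control, and none passed the adjusted threshold. Nrxn3 (ENSMUSG00000066392, chromosome 12, 88722876 to 90334935) had a lowest, median and highest normalized count of 6652, 7082 and 7721 in WT control and of 5281, 6248 and 7458 in APP control. APP control 6, at 7458, lay inside the WT control range and the other 5 lay below it. The log2 fold change was -0.21 (SE 0.0726, adjusted p = 0.0710), and over the alternatives the adjusted p ran from 0.00128 to 0.217. Without APP control 6 it was past the threshold, as were Pclo and Syt1.
Unc13b (ENSMUSG00000028456, chromosome 4, 43058953 to 43264871) had normalized counts of 3796 to 4178 in WT control and 3331 to 3803 in APP control, ranges that barely met. Its log2 fold change was -0.15 (SE 0.0535, adjusted p = 0.0965). Syt1 (ENSMUSG00000035864, chromosome 10, 108497650 to 109010982) had a median of 49234 in WT control and 42853 in APP control, where APP control 6 was far above the rest at 51774.5. Its log2 fold change was -0.17 (SE 0.0665, adjusted p = 0.147). Syt11 had a median of 28624 in WT control and 27162 in APP control (log2 fold change -0.11, SE 0.0466, adjusted p = 0.164).
Pclo, the scaffold piccolo, had medians of 11148 and 9327 (log2 fold change -0.21, SE 0.0856, adjusted p = 0.173). For Nsf the medians were 32530 and 28097 (-0.14, SE 0.0647, adjusted p = 0.237), for Sv2a 17920 and 16877 (-0.12, SE 0.0588, adjusted p = 0.286), and for Syt5 4945 and 4493 (-0.16, SE 0.0802, adjusted p = 0.305). Rab3c had the lowest log2 fold change of the 46 (-0.26, SE 0.126, adjusted p = 0.308), with a WT control range of 16648 to 27728 that held all APP control libraries but 2, at 15355 and 15504.5.

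By role, all 12 vesicle genes, all 6 synaptotagmins and relatives, all 5 endocytosis genes and both neurexins had lower means in APP control, with medians of -0.10, -0.14, -0.10 and -0.14 on the log2 scale. Of the 9 fusion genes 8 were lower (median -0.12), the exception being Cplx2 at 0.02. The active zone group was split: 8 of 12 were lower (median -0.10), while Rims1, Ppfia3, Rims2 and Rims3 were at 0.40, 0.07, 0.03 and 0.02. Apart from Rims1, none of these passed the test.

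**Figure D3:**
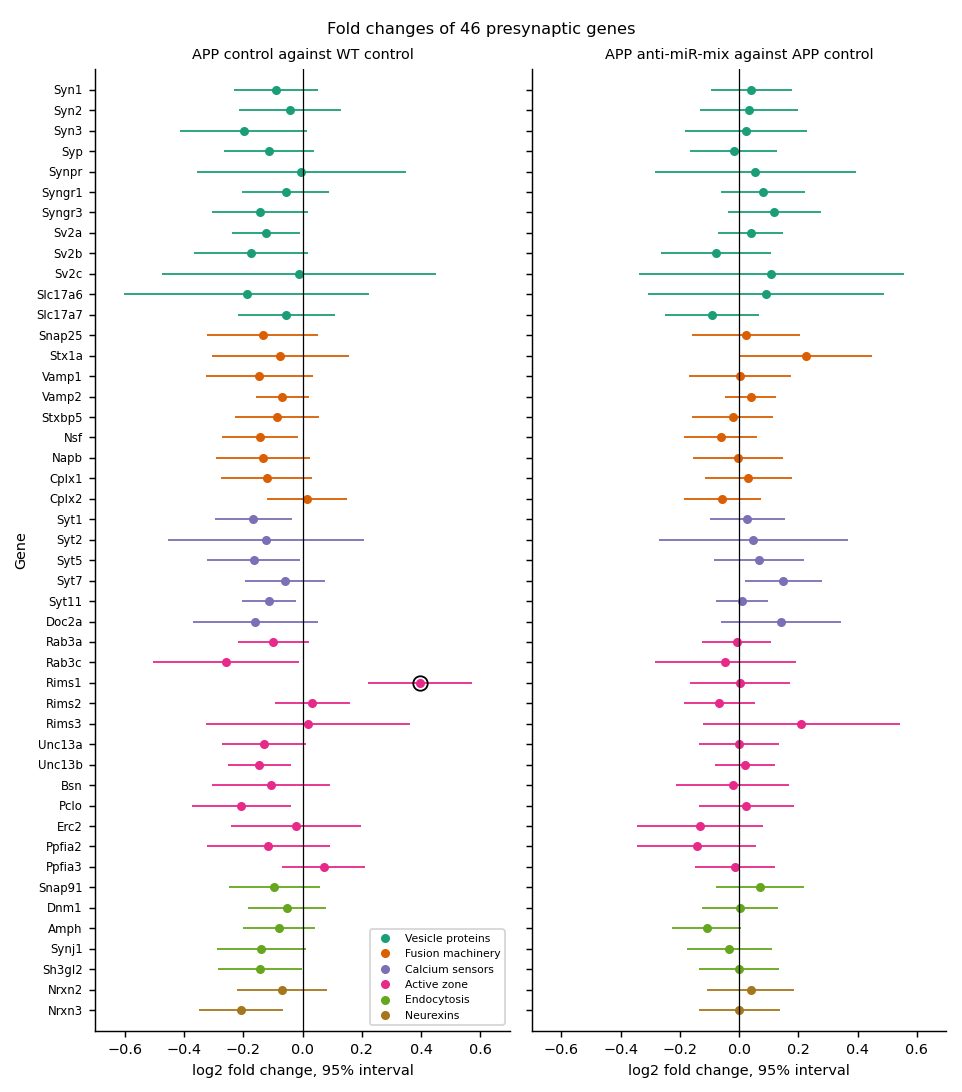
log2 fold change of each of the 46 genes with its 95% interval, in APP control against WT control (left) and anti-miR-mix against APP control (right), coloured by role. The ringed point is Rims1, the only gene past the adjusted threshold; in the left panel 41 genes lie below 0, in the right panel 19.

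The median deviation of the 46 genes from the WT control mean, on the log2 scale, was between -0.0967 and 0.0863 in WT control and between -0.131 and -0.0359 in APP control. The groups overlapped in part: 4 of the 6 APP control libraries, at -0.0996 to -0.131, lay below the lowest WT control library. The lowest WT control libraries by this measure were WT control 1 (-0.0967) and WT control 5 (-0.0831), the same 2 libraries that stood apart in the glial response genes. Without both, the median log2 fold change of the 46 was -0.137 in APP control against WT control, and Nsf was called beside Rims1 (all genes: 892 higher, 284 lower). Genes of neurons outside this list were also lower in their means: 14 of 14 postsynaptic genes (median -0.141), 13 of 14 general neuronal genes (median -0.047) and 39 of 53 further presynaptic genes (median -0.072), with 0, 0 and 2 called lower. Of 8 interneuron genes (median -0.214) 3 fell: Gad1 and Gad2, which make GABA (log2 fold changes -0.30 and -0.26, DESeq2 adjusted p = 0.00292 and 0.0287), and Npy, a neuropeptide of interneurons (-0.37, adjusted p = 0.0336). Over the same comparison 14 of 15 amyloid response genes were called higher, with a summed level of 1619 to 3428 TPM in WT control and 3327 to 8574 TPM in APP control. Without APP control 5 only Rims1 was called among the 46 (all genes: 744 higher, 166 lower), and without APP control 6 there were 4 (867 higher, 334 lower). The part of these other changes in the lower presynaptic values was not tested.

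**Figure D4:**
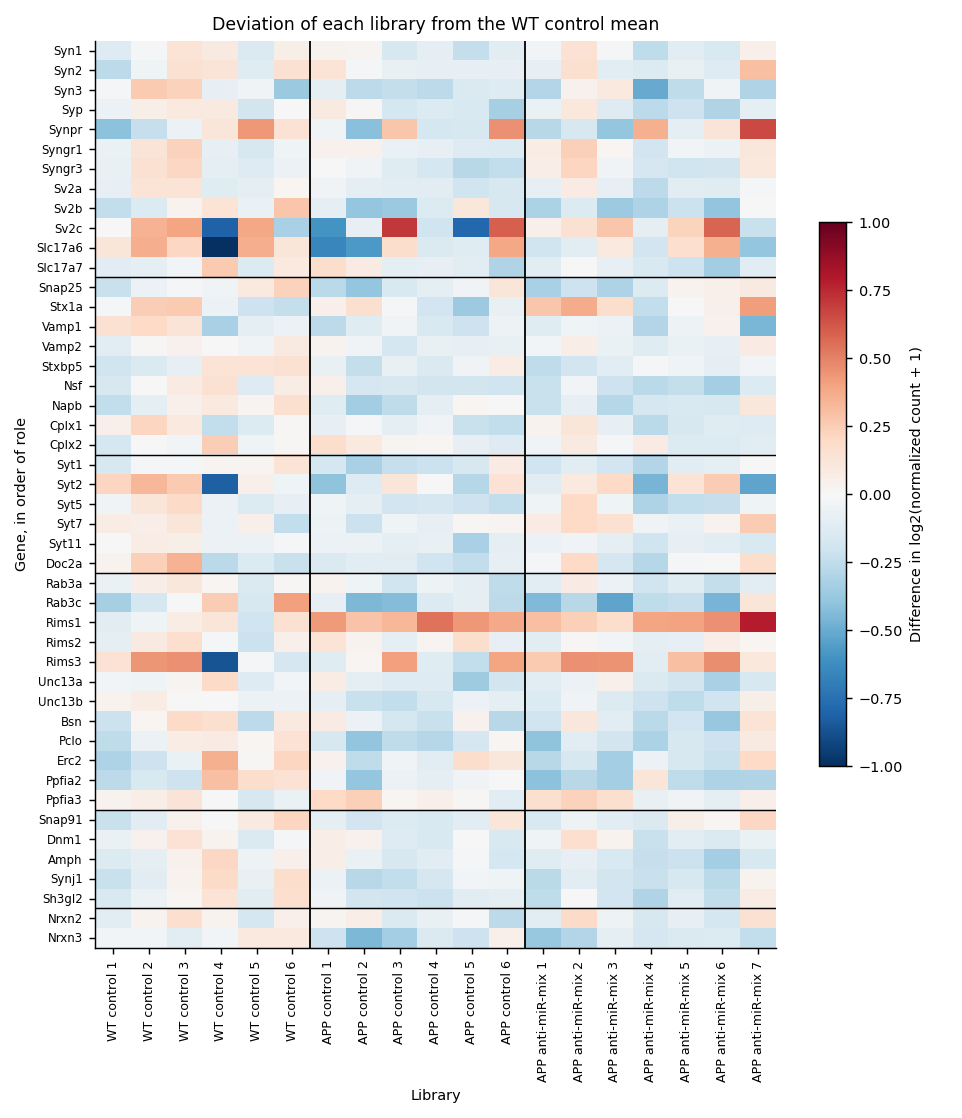
Deviation of each library from the WT control mean in log2(normalized count + 1), with genes in order of role and libraries in order of group; red is higher and blue lower. Rims1 is red in every APP control and anti-miR-mix library, and Slc17a6, Sv2c, Syt2 and Rims3 are blue in WT control 4.

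The second comparison, anti-miR-mix against APP control, asks what the inhibitors changed within the transgenic animals. None of the 46 genes passed the test, and 0% of all genes did, by DESeq2 or by edgeR. The median log2 fold change of the 46 was 0.02, beside -0.0014 over all genes, with 27 genes higher and 19 lower. Of the 46, 2 were higher and 0 lower at an unadjusted p under 0.05, beside 1.50% and 1.36% of all genes. None of the 46 had groups that did not overlap, beside 0.0207% of all genes. For 44 of the 46 the 95% interval lay within 0.5 of 0 on the log2 scale, and for 32 within 0.25. The exceptions to the first bound were Sv2c (interval -0.34 to 0.56) and Rims3 (-0.12 to 0.54).

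Syt7 (ENSMUSG00000024743, chromosome 19, 10389090 to 10453180) had the smallest p. Its lowest, median and highest normalized counts were 8909, 9979 and 10528 in APP control and 9871, 10891 and 12328 in anti-miR-mix, so the groups overlapped. The log2 fold change was 0.15 (SE 0.0661, DESeq2 adjusted p = 1, unadjusted 0.0234), a difference of 10.9%. Stx1a, the plasma membrane syntaxin, had 2635, 3292 and 3798 in APP control and 2865, 3834 and 4526 in anti-miR-mix (log2 fold change 0.23, SE 0.114, DESeq2 adjusted p = 1, unadjusted 0.0482). Amph, amphiphysin, which recruits dynamin, had 6401, 6807 and 7570 against 5724, 6481 and 6849 (-0.11, SE 0.0594, DESeq2 adjusted p = 1, unadjusted 0.0668). Syngr3, Ppfia2 and Doc2a came next, at 0.12 (SE 0.0803), -0.14 (SE 0.103) and 0.14 (SE 0.103). The adjusted p was 1 for each of these 6 genes. Doc2a shares 39.4% of its exonic bases with Ino80e on the opposite strand, whose mean count was 709.9 against 286.7 for Doc2a, and strandedness of the counting is not given in the sources used here, so the Doc2a count may include reads of Ino80e. Ppfia2 shares 22.3% with Acss3, whose mean count was 45.6 against 3418 for Ppfia2.
Rims1 had a log2 fold change of 0.0034 between these groups, with a 95% interval of -0.17 to 0.17, and Nrxn3 one of -1.34e-05, with an interval of -0.14 to 0.14. By role the medians ran from -0.01 in the active zone to 0.06 in the synaptotagmins and relatives, of which all 6 had higher means and none passed the test.

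Of the 14 predicted targets, 7 were listed for miR-146a-5p (Syt1, Sh3gl2, Rims2, Syn1, Syn2, Syn3 and Syt7), 4 for miR-148a-3p (Stxbp5, Ppfia2, Synj1 and Syt1) and 4 for miR-181a-5p (Synpr, Syt11, Vamp1 and Rims3); Syt1 was on both of the first lists. Because microRNAs lower their targets, the comparison asks whether these genes were higher after inhibition. In anti-miR-mix against APP control the predicted targets had a median log2 fold change of 0.02 (9 of 14 higher) and the other 32 genes one of 0.01 (18 higher), beside -0.0006 over all 1682 predicted targets tested. The medians were 0.03 for the 7 targets of miR-146a-5p, -0.03 for the 4 of miR-148a-3p and 0.03 for the 4 of miR-181a-5p. None of the 14 was called. The largest value, 0.21 for Rims3, had an SE of 0.170.

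The third comparison, anti-miR-mix against WT control, sets the treated transgenic animals beside the wild type. It shares the WT control libraries with the first comparison and the anti-miR-mix libraries with the second. Rims1 rose, Nsf, Amph and Nrxn3 fell, and the other 42 genes did not pass the test. Beside 1 of the 46 called higher, 5.94% of all genes were called higher, and beside 3 called lower, 3.57% of all genes were called lower. The median log2 fold change of the 46 was -0.101 (-6.78%), with 38 of 46 lower, beside a median of -0.0152 over all genes. Rims1 was again the only one of the 46 whose groups did not overlap, where 2.52% of all genes were separated upward and 0.897% downward.

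Rims1 had a log2 fold change of 0.40 (SE 0.0866, DESeq2 adjusted p = 1.66e-04), and the call held in all 31 alternatives. The ratio of Rims1 to Rims2 was 1.96 to 2.52 on the log2 scale in anti-miR-mix, again above the WT control range of 1.62 to 1.88. Of the 10 tested neighbours on chromosome 1 only Smap1 was called, and it was lower (log2 fold change -0.17, adjusted p = 0.0100).

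Nsf (ENSMUSG00000034187, chromosome 11, 103821782 to 103954056) is needed to recycle SNARE proteins after each fusion. Its lowest, median and highest normalized counts were 28358, 32530 and 35219 in WT control and 25040, 27235 and 31195 in anti-miR-mix, so the groups overlapped. The log2 fold change was -0.21 (SE 0.0623, DESeq2 adjusted p = 0.0149). Amph (ENSMUSG00000021314, chromosome 13, 18948205 to 19150921) had 6570, 7210 and 8335 in WT control and 5724, 6481 and 6849 in anti-miR-mix (log2 fold change -0.19, SE 0.0594, DESeq2 adjusted p = 0.0218). Nrxn3 had 5547, 6406 and 6739 in anti-miR-mix, where a single library reached into the WT control range of 6652 to 7721 (log2 fold change -0.21, SE 0.0700, DESeq2 adjusted p = 0.0350).
These 3 calls changed with the setting, as did the calls over all genes, which numbered 1078 higher and 649 lower. In edgeR the adjusted p was 0.0620 for Nsf, 0.0740 for Amph and 0.0770 for Nrxn3, and Rims1 alone was called (all genes: 881 higher, 288 lower). Without WT control 4, the highest WT control library for Nsf and Amph, Rims1 was again the only one of the 46 called (843 higher, 364 lower), and so it was without WT control 6 (798 higher, 371 lower). With the linear term of the first comparison 8 were called, all but Rims1 lower (1295 higher, 1076 lower). Over the 31 alternatives Nsf was called in 26, Amph in 23 and Nrxn3 in 21. Without WT control 1 there were 9 called genes, the others being Pclo, Ppfia2, Rab3c, Sv2b and Synj1 (1239 higher, 773 lower), and without anti-miR-mix 7 there were 8 (1065 higher, 544 lower). Without WT control 1 and WT control 5 together, 7 were called, among them Nsf and Amph but not Nrxn3 (1230 higher, 728 lower). Without WT control 5 and anti-miR-mix 6, the libraries highest in choroid plexus markers, 2 were called, Nsf and Rims1 (891 higher, 368 lower).

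The genes next in order did not pass the test. Sv2b had medians of 15531 in WT control and 12662 in anti-miR-mix (log2 fold change -0.25, SE 0.0946, DESeq2 adjusted p = 0.0722). Ppfia2, a liprin that binds RIM and organizes the active zone, had medians of 3647 and 2958 (-0.26, SE 0.103, adjusted p = 0.0938), with anti-miR-mix 4 alone at 3958. Rab3c had the lowest log2 fold change (-0.30, SE 0.121, adjusted p = 0.0959). Unc13b was at -0.13 (SE 0.0515, adjusted p = 0.1096), Synj1 at -0.17 (SE 0.0735, adjusted p = 0.128) and Syt11 at -0.10 (SE 0.0449, adjusted p = 0.138). By role the endocytosis genes were all lower with a median of -0.15, followed by the active zone at -0.13, the neurexins at -0.12, the fusion genes at -0.11, the synaptotagmins and relatives at -0.09 and the vesicle genes at -0.07, where 9 of 12 were lower.

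**Figure D5:**
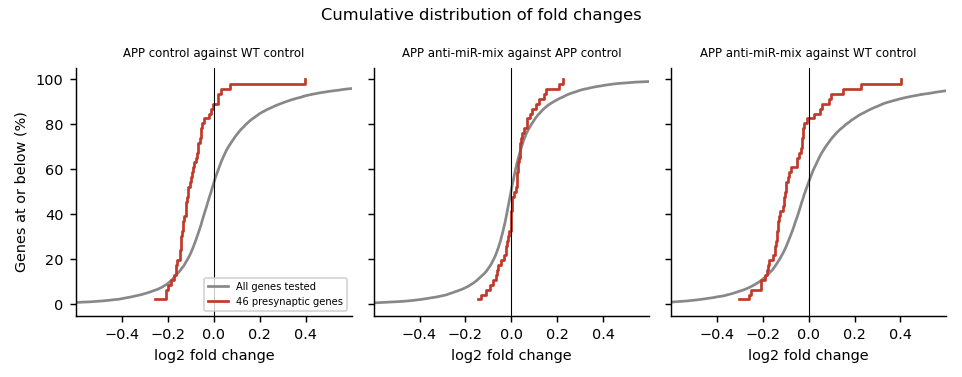
Share of genes at or below each log2 fold change, for the 46 presynaptic genes (red) and all genes tested (grey), in the 3 comparisons. In both comparisons against WT control the red curve lies to the left over most of its length, with medians of -0.114 and -0.101 against -0.0124 and -0.0152, and in anti-miR-mix against APP control the medians are 0.02 and -0.0014.

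The median deviation of the 46 genes from the WT control mean had an SD over libraries of 0.0829 in anti-miR-mix, 0.0737 in WT control and 0.0343 in APP control; the difference in spread was not tested. In anti-miR-mix it ran from -0.196 in library 4 to 0.0276 in library 2 and 0.0269 in library 7, and the other 4 lay between -0.136 and -0.0828. Libraries 2 and 7 also had the lowest summed oligodendrocyte markers of their group (3645 and 3009 TPM, against 4755 to 6140 in the rest). In the amyloid response genes library 7 was lowest at 4324 TPM and library 4 highest at 7602 TPM. The part of these differences in the presynaptic values was not tested.

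The 46 genes differed in how steady they were within groups. The pooled SD within groups on the log2 scale was largest for Sv2c (0.464), Slc17a6 (0.430), Rims3 (0.343), Synpr (0.334) and Syt2 (0.331). WT control 4 stood low in 4 of these 5: Slc17a6 was at 769 normalized counts there against 1902 to 2249 in the rest of WT control, Syt2 at 1556 against 2658 to 3441, Rims3 at 2276 against 3690 to 5676, and Sv2c at 517 against 722 to 1186. In the same library Slc17a7 was highest, at 39202 against 29604 to 34969, as was Cplx2, at 36409 against 27277 to 31008. Over all 46 genes it was the lowest WT control library for 9 and the highest for 8, fewer than WT control 1 (lowest for 18), WT control 5 (lowest for 15) or WT control 3 (highest for 17).

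Among 53 further presynaptic genes, 1 was called higher and 2 lower in APP control against WT control, beside 3.89% and 1.11% of all genes. Stxbp5l, a relative of Stxbp5, had normalized counts of 2098.5 ± 176.5 (WT control), 1586 ± 273 (APP control) and 1540 ± 102 (anti-miR-mix), with a log2 fold change of -0.40 in APP control (SE 0.0953, DESeq2 adjusted p = 0.00112) and of -0.45 in anti-miR-mix (adjusted p = 5.99e-05). Stxbp5 itself was at -0.09 in APP control (SE 0.0723, adjusted p = 0.706). Dnajc5, the vesicle chaperone, fell in APP control (log2 fold change -0.10, SE 0.0307, adjusted p = 0.0178). Syngr2, a synaptogyrin found outside neurons as well, rose (0.52, SE 0.158, adjusted p = 0.0254).
In anti-miR-mix 2 of the 53 were called higher and 2 lower against WT control, shares near the 5.94% and 3.57% of all genes. Syngr2 was among them (0.65, adjusted p = 6.31e-04), as were Stxbp5l and, lower, Syt12 (-0.33, SE 0.0960, adjusted p = 0.0113). Cplx3, a complexin of restricted expression, had normalized counts of 314 ± 111 (WT control), 331 ± 72.8 (APP control) and 565 ± 164 (anti-miR-mix), a log2 fold change of 0.85 against WT control (DESeq2 adjusted p = 0.00462). Against APP control its log2 fold change was 0.77 (DESeq2 adjusted p = 1, unadjusted 7.20e-04). Across the 53 genes none was called between the transgenic groups, where the median was 0.017.

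Markers of other cells and regions moved as follows beside these results. In APP control against WT control 3 of 5 homeostatic microglial genes and 1 of 5 endothelial genes were called higher, 3 of 8 interneuron genes were called lower, and 1 of 6 thalamic genes was called higher. None of the CA1, CA3, dentate gyrus, cortical, striatal, astrocyte or oligodendrocyte genes was called, nor any of the 4 choroid plexus genes tested. The subfield markers still differed in their means. All 5 CA1 genes were lower (median log2 fold change -0.115), while all 5 CA3 genes (0.257) and all 5 dentate gyrus genes (0.187) were higher. The part of these shifts in the presynaptic values was not tested. In anti-miR-mix against WT control 14 of 15 amyloid response genes and 4 of 5 homeostatic microglial genes were called higher. So were 2 of 6 thalamic genes and 1 of 5 endothelial genes. Called lower were 4 of 14 postsynaptic genes, 3 of 8 interneuron genes and 1 of 5 cortical genes. The cortical list was mixed, with 3 genes higher and 2 lower in their means (median 0.092). No gene of any of these lists was called between anti-miR-mix and APP control.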

How the data were processed

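Polyadenylated RNA of the CA1 region was sequenced as 50-nt single-end reads. The authors aligned reads to mm10 with STAR 2.5.2b and counted them with featureCounts (Subread 1.5.1); the deposited counts are raw reads per gene. The annotation release and strandedness of counting are not given in the sources used here. The authors also deposited a log2 table of normalized, adjusted expression, used only as an alternative; its difference from the log2 of the normalized counts was, in 99.99979% of its variance, 1 profile over genes times a whole number per library, and that number was tried as a covariate.

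Genes with at least 5 counts in 50% of samples (19297 of 48709) were fitted in DESeq2 1.42.0 (R 4.3.3; Wald test, all groups in 1 fit) and called at a Benjamini-Hochberg adjusted p under 0.05 over all genes. Normalized counts are counts divided by DESeq2 size factors, and TPM used exon lengths of GENCODE M21, in which 48349 identifiers matched. Alternatives were edgeR 4.0.16 (quasi-likelihood test), limma 3.58.1 on the deposited log2 values, other filters and size factors, 2-group fits, blocks, and left-out libraries. Scripts were tested on simulated data. Genes named with statistics were those called against WT control, the 10 with the smallest p in each comparison against WT control, and the 6 between the transgenic groups; further genes were named from the lists. The 46 genes and all marker lists were chosen with earlier results of these data known. Each library is labelled as a separate sample; where separate animals are not stated, p-values measure only the spread between samples. No pair of libraries within a group agreed within sampling noise; pairs across groups were not compared.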

Additional observations from a re-analysis of the deposited data

Results flagged for a closer look

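In 10 of the 138 combinations of a gene and a group, 1 library lay farther from the rest of its group than Dixon's test allows at the 95% level; chance alone gives about 1 in 20. Values are normalized counts. In APP control, library 1 was highest for Syn2 (17954, others 15430 to 16131) and for Nsf (32826.6, others 27659 to 28428). Library 6 was highest for Syt1 (51774.5, others 39111 to 43811) and for Snap91 (10984.9, others 8843 to 9497). Library 5 was lowest for Syt11 (23013, others 26955 to 27725), and library 2 was lowest for Ppfia2 (2773.6, others 3399 to 3618). In anti-miR-mix, library 7 was highest for Rab3c (22747.1, others 14477 to 17857) and Rims1 (9151.5, others 5998 to 7307), and library 4 was highest for Ppfia2 (3957.7, others 2741 to 3044). WT control 4 was lowest for Slc17a6 (769.1, others 1902 to 2249).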

How the results depend on the processing

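Over 31 alternatives, no called value reversed and the median log2 fold change of the 46 genes kept its side of 0 against WT control: -0.137 to -0.0698 in APP control and -0.125 to -0.0611 in anti-miR-mix. Between the transgenic groups it ran from -0.0047 to 0.0288, and 0 of the 46 genes were called throughout. Over all genes the alternatives called 0 to 3 higher and 0 to 2 lower there. The count called in APP control against WT control was 1, and 2 with only the 2 groups compared, 2 without WT control 1 and WT control 5, 5 with the adjustment number as a linear term and 2 with it as a factor. Leaving out 1 library at a time gave 1 to 4 (3 without WT control 1, 4 without APP control 6, 2 without anti-miR-mix 7). The count in anti-miR-mix against WT control was 4, and 1 in edgeR, 2 with limma on the deposited log2 values, 7 without WT control 1 and WT control 5, 2 without WT control 5 and anti-miR-mix 6 (highest in choroid plexus markers), and 8 with the linear term. Leaving out 1 library gave 1 to 9 (9 without WT control 1, 8 without anti-miR-mix 7, 1 without WT control 4 or WT control 6). The cause of these differences was not tested. Over all genes the alternatives called 537 to 903 higher and 84 to 452 lower in APP control, and 798 to 1451 higher and 288 to 1076 lower in the treated group, against WT control (706, 202, 1078 and 649 as reported).

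With the replicate number as a block, 6 of the presynaptic genes were called in APP control and 13 in anti-miR-mix against WT control. The 6 were Rims1, Nrxn3, Pclo, Snap25, Syt1 and Unc13b. The 13 were these and Amph, Napb, Nsf, Ppfia2, Rab3c, Sv2b and Synj1, and all but Rims1 were lower. Calls over all genes rose too, from 706 higher and 202 lower to 802 and 420 in APP control. In anti-miR-mix they rose from 1078 higher and 649 lower to 1228 and 974. The replicate numbers were not taken to pair the libraries. Of 18 same-numbered pairs, 10 correlated above 0.1 (median 0.107, from -0.125 to 0.347), against 21 of 102 other pairs (median -0.0125). The best correlation was with their own number for 5 libraries. By these values same-numbered libraries were more alike than others, though not in every pair, and the difference itself was not tested. Libraries that share the adjustment number correlated above 0.1 in 17 of 27 pairs (median 0.125), against 14 of 93 others.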
